A study of Mus musculus with 1152 samples.

Results

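The elastic fibre and fibronectin genes of the mouse brain were followed as a set of 10 genes out of 46517 in a table of read counts from single sorted cells. The set was chosen by name: Eln, Fbn1, Mfap4, Mfap5, Fbln1, Fbln2, Fbln5, Efemp1, Efemp2 and Fn1, and all 10 were found in the table. Cells came from adult C57BL/6 mice of both sexes, of the lines Pdgfra-H2BGFP and Tagl-CREERT2;Ai14, and were sorted by fluorescence, 1 cell to a well, for SMART-seq2, a full-length cDNA method. Pdgfra-H2BGFP puts a nuclear green protein in cells that use the receptor gene Pdgfra, which in brain are mainly fibroblasts and oligodendrocyte precursors. In Tagl-CREERT2;Ai14 a recombinase that needs tamoxifen turns on a red protein in the cells that use its promoter, which the labels name Tagl. All tissue was digested and enriched for vascular fragments with beads carrying an antibody to CD31, an endothelial surface protein, before the sort. The labels tie no well to a line, an animal or a plate, so the wells were 1 sample with no replicates, and classes of wells were defined by their own transcripts.

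An elastic fibre is a core of cross-linked elastin laid on a scaffold of microfibrils, and it lets an artery wall recoil. Fibrillin builds the microfibrils, the microfibril-associated glycoproteins sit on them, and the fibulins link tropoelastin, the soluble precursor, to fibrillin and to the lysyl oxidases that cross-link it. Fibronectin is a separate adhesive matrix protein that cells assemble through integrins, and fibrillin microfibrils and several fibulins bind to it. In brain these proteins belong to the walls of arteries, the perivascular space and the meninges.

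For Fbn1, Fbln2 and Efemp1, RefSeq lists a single promoter window each; they stand for the microfibril, for the gene that followed Slc6a13 and for the gene used by most fibroblast wells. The 250 bases before the RefSeq start site of each are given, on the gene's own strand in GRCm38.p6, with matches to the searched motifs in capitals. They lie at chr2:125506439-125506688 on the minus strand, chr6:91212514-91212763 on the plus strand and chr11:28852955-28853204 on the plus strand. The windows of Fbn1 and Fbln2 lie inside the gene spans of the GENCODE annotation given below, whose outermost start differs from that of RefSeq.
Fbn1: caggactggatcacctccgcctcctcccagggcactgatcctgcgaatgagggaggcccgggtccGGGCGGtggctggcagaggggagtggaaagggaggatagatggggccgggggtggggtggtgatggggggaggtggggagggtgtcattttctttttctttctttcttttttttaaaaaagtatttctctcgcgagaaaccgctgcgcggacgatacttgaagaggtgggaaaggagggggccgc
Fbln2: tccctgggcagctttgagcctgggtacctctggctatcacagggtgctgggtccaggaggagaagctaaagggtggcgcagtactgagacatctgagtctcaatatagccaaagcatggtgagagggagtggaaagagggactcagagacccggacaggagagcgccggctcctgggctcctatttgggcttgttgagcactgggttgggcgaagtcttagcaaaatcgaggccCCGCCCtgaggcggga
Efemp1: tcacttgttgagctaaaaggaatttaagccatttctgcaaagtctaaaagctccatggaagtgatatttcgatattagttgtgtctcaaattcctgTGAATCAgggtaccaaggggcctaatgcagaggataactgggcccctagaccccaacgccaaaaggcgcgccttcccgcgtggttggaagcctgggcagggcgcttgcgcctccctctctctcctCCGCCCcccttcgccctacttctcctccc
The motifs searched on both strands were TATAAA (the TATA box core), GGGCGG (the GC box core), TGANTCA (the AP-1 core) and GGAATG (the TEAD core), and no match overlapped another. Each of the 3 windows held 1 GC box core, a match found in 32.7% of 32851 windows of equal length. Efemp1 also held 1 AP-1 core, found in 6.75% of windows, while none of the 3 held the TATA or the TEAD core, found in 12.4% and 12.6%. Windows were found for 6 of the 10 genes: these 3, and Fbln1, Fbln5 and Efemp2 with more than 1 start site each. A match is a match of letters only and was tied to no value below.

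The table had 1152 wells, 384 with each of the name prefixes 1025s_182s, 600s_182s and 613s (3 sets), and 857 wells had at least 50000 reads and were kept, with 50002 to 1451280 reads each. A well entered a class with at least 3 of the class's markers at 100 CPM or more, where CPM is the gene's share of the well's reads times 1e+06. This gave 97 fibroblast wells, 29 mural wells (smooth muscle cells and pericytes), 42 endothelial wells and 628 wells of the oligodendrocyte lineage, with median depths of 249810, 387896, 276686 and 306855 reads in that order. The fibroblast markers were Dcn, Lum, Ogn, Col1a1, Col1a2 and Col3a1, which are matrix genes but none of the 10. Their summed level was 8904 CPM in fibroblast wells, 722 CPM in mural wells, 1155 CPM in endothelial wells and 63.2 CPM in oligodendrocyte lineage wells. Classes were not pure by these gates: 33 of the 97 fibroblast wells passed a second lineage gate, 26 of them that of the oligodendrocyte lineage, and 27 of the 29 mural wells also passed the endothelial gate. A gate of a lineage that was not vascular was passed by 25 of the 42 endothelial and 22 of the 29 mural wells. In these vascular classes together, 30 wells passed the microglial gate, 18 the fibroblast gate and 13 that of the oligodendrocyte lineage. In the mural wells the endothelial markers summed to 7044 CPM, against 7625 CPM in endothelial wells, so what is given for mural wells was measured in wells that held endothelial RNA as well. A class level is the CPM of its summed reads with an exact Poisson 95% interval. A gene was called higher or lower in a class when the levels, each with 1 CPM added, differed by a ratio of 2 or more and one of them reached 10 CPM. Such a call describes size in these wells and is not a test. Poisson intervals cover counting error of reads only, and PCR copies without molecular identifiers are not independent molecules. Exact Clopper-Pearson intervals on shares of wells treat wells as independent draws. Neither kind of interval covers spread between animals.

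In fibroblast wells 10 of the 10 genes were called higher than in the oligodendrocyte lineage pooled over its stages, a call that 22.7% of the 12383 genes compared received. None was called lower, against 24.3% of genes. The median log2 ratio of the 10 was 3.91, and that of all genes compared was -0.07. Against endothelial wells 9 were called higher, against 23.0% of genes, and 1, Fn1, was called lower, against 20.5%. Against mural wells 6 were called higher, against 24.1% of genes, and 2, Eln and Fn1, were called lower, against 20.1%, while Fbln2 and Fbln5 received no call. The 10 genes therefore fell into a group that was highest in fibroblasts (Fbn1, Fbln1, Efemp1, Efemp2, Mfap4 and Mfap5), a group that was not called higher in fibroblasts than in mural wells (Eln, Fbln2 and Fbln5), and Fn1, which was highest in vascular wells.

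**Figure D1:**
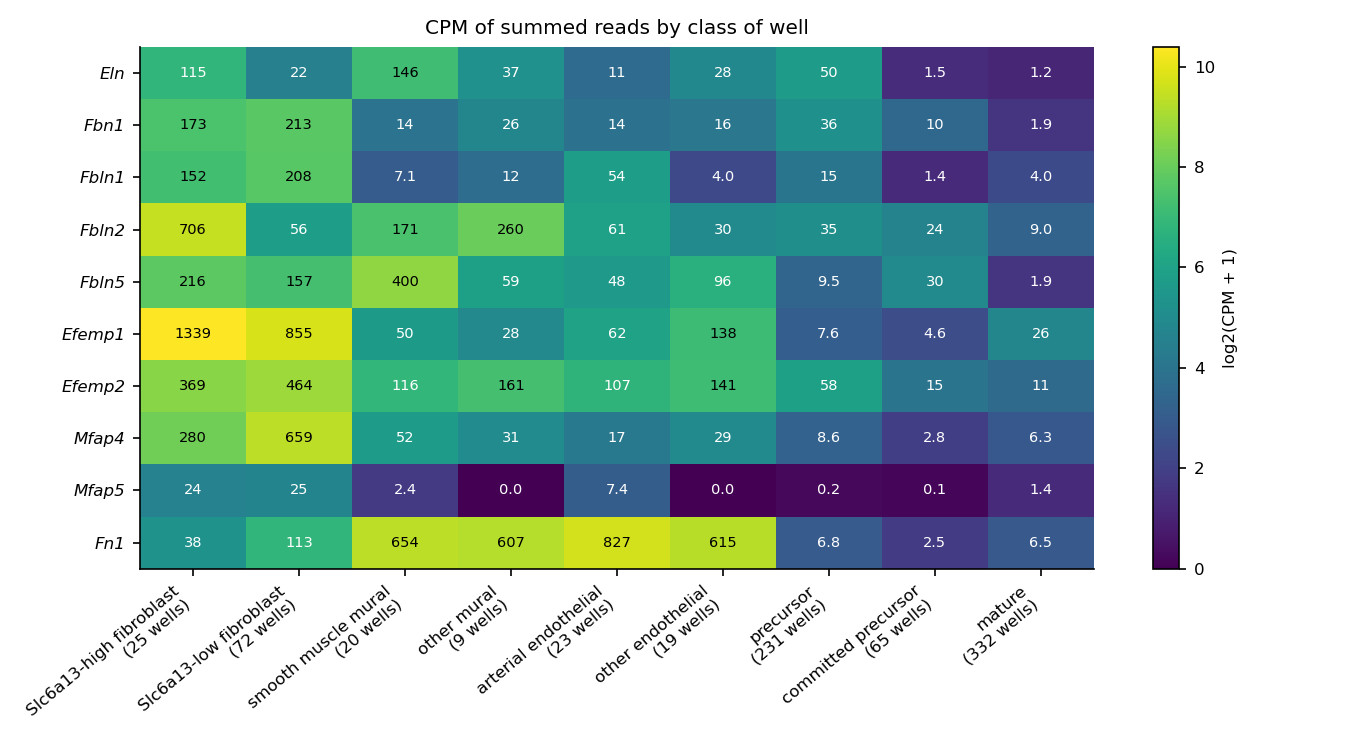
Heat map of the level of each gene (rows) in each class of wells (columns, with the number of wells), as log2(CPM + 1) of summed reads, with the CPM printed in each cell. Efemp1, Efemp2 and Mfap4 are bright in both fibroblast columns, Fn1 in the 4 vascular columns, and Fbln2 stands out in the Slc6a13-high fibroblasts at 706 CPM.

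Within 1 class, genes were ranked by CPM per kilobase of exon, since longer transcripts collect more reads. The length was that of the merged exons of all annotated transcripts of a gene, which can exceed that of the transcript used. The shares and the order of genes with close values depend on this choice. In fibroblast wells the order began with Efemp1 at 464 CPM per kilobase and Mfap4 at 306, followed by Efemp2 at 118. These 3 made up 45.4%, 30.0% and 11.5% of the sum over the 10 genes. The other 7 lay between 45.2 (Fbln1) and 4.83 CPM per kilobase (Eln), so elastin itself was the lowest of the set in fibroblasts on this scale. In mural wells the first place went to Fn1 at 54.5 CPM per kilobase, followed by Fbln5 at 40.4, Efemp2 at 34.8 and Fbln2 at 31.8, with Eln at 13.2.

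Eln, which encodes tropoelastin, lies at chr5:134702593-134747323 on the minus strand of GRCm38. Its level was 39.1 CPM (95% interval 36.9 to 41.4) in fibroblast wells, 107 CPM (101 to 113) in mural wells, 17.9 CPM (15.8 to 20.2) in endothelial wells and 17.4 CPM (16.9 to 18.0) in the oligodendrocyte lineage. The lowest well was at 0 in every class, for Eln and for the other 9 genes. The median and highest wells for Eln were 0 and 1247 CPM in fibroblasts, 3.37 and 1168 CPM in mural wells, 0 and 357 CPM in endothelial wells, and 0 and 1261 CPM in the oligodendrocyte lineage. Most wells of each class thus had no or few Eln reads, and a small number had very many: 9 of 97 fibroblast wells and 7 of 29 mural wells reached 100 CPM. Fibroblasts were 1.43 below mural wells on the log2 scale. The sign was the same within both sets that had 5 or more wells of each class, at -2.89 in 1025s_182s and -1.26 in 613s. Within mural wells Eln was at 146 CPM in the 20 wells with smooth muscle markers, against 37.2 CPM in the other 9, but 1 well held much of it: without the top well of each the levels were 106 and 15.9 CPM. Against the oligodendrocyte lineage the call for fibroblasts was near the limit, at a log2 ratio of 1.12, and was lost when the top well of each class was left out (0.96), with set 613s left out (0.88) and with a fibroblast gate on non-matrix genes (0.79). The call was against the pooled lineage, whose precursor wells alone, at 50.4 CPM, lay above fibroblasts. By set, precursors and fibroblasts had 31.4 and 17.1 CPM in 1025s_182s, 63.6 and 165 CPM in 600s_182s, and 10.0 and 31.9 CPM in 613s.

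Fbn1 encodes fibrillin-1, the backbone of the microfibril, and lies at chr2:125300594-125507993 on the minus strand. It measured 205 CPM (200 to 210) in fibroblast wells, 18.5 CPM in mural wells, 15.0 CPM in endothelial wells and 14.3 CPM in the oligodendrocyte lineage. The median fibroblast well had 5.76 CPM and the highest 1957 CPM, and 29 of 97 wells (29.9%) reached 100 CPM, against 2 of 29 mural wells, 3 of 42 endothelial wells and 23 of 628 oligodendrocyte lineage wells. Fibroblasts were high in all 3 sets, from 138 to 275 CPM, against at most 18.9 CPM in mural, endothelial or pooled oligodendrocyte lineage wells of a set with 5 or more wells of the class. The 2 mural wells at 100 CPM were the only mural wells of 600s_182s, and both passed the fibroblast gate too. Precursor wells of the oligodendrocyte lineage alone had 91.1 CPM in 1025s_182s, where fibroblasts had 138 CPM, 24.1 CPM in 600s_182s and 54.3 CPM in 613s. Of the exon bases of Fbn1, 20.1% overlap the antisense gene Gm9913. The strand setting of the authors' counting is not given in the sources used here, so the reads of the overlap cannot be told apart.

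Mfap4 and Mfap5 encode microfibril-associated proteins, and differed widely in level. Mfap4, at chr11:61485431-61488900 on the plus strand, binds tropoelastin and fibrillin and measured 589 CPM (580 to 597) in fibroblast wells, 44.4 CPM in mural wells, 22.1 CPM in endothelial wells and 6.53 CPM in the oligodendrocyte lineage. Fibroblast wells ranged up to 4736 CPM with a median of 26.0 CPM, and 44 of 97 (45.4%) reached 100 CPM. The fibroblast wells were therefore split into wells with little Mfap4 and wells with much of it. All 3 mural wells and all 3 endothelial wells at 100 CPM also passed the fibroblast gate, and with wells of several lineage gates left out Mfap4 was 585 CPM in fibroblasts, 2.29 CPM in mural wells and 2.48 CPM in endothelial wells. It had the largest log2 ratio of the 10 over the oligodendrocyte lineage, 6.29. Mfap5, at chr6:122505845-122529290 on the plus strand, encodes a glycoprotein of the microfibril that can also bind integrins. It measured 24.4 CPM (22.7 to 26.3) in fibroblast wells, 1.53 CPM in mural wells, 4.43 CPM in endothelial wells and 0.824 CPM in the oligodendrocyte lineage. Only 8 fibroblast wells had any Mfap5 read, and 3 wells held 88.7% of those reads, so its class level describes a few wells. Its reads came from 1 of 29 mural wells and 2 of 42 endothelial wells.

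The fibulins came in 3 patterns. Fbln1, at chr15:85205949-85286535 on the plus strand, encodes a fibulin of basement membranes and elastic fibres that binds fibronectin. It measured 198 CPM (193 to 203) in fibroblast wells, 8.89 CPM in mural wells, 33.8 CPM in endothelial wells and 7.34 CPM in the oligodendrocyte lineage. In fibroblasts 21 of 97 wells reached 100 CPM, with a median of 0 and a maximum of 3062 CPM, whereas no mural well did (0 of 29, exact Clopper-Pearson upper limit 11.9%). The endothelial level came largely from 1 well, and without it was 11.2 CPM. In the 2 sets with 5 or more endothelial wells, fibroblast wells had 246 and 124 CPM, against 14.9 and 9.26 CPM in endothelial wells.

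Fbln5, at chr12:101746565-101819055 on the minus strand, encodes a fibulin that binds tropoelastin and integrins and is needed for elastic fibres in mice. Its level was 168 CPM (164 to 173) in fibroblast wells, 279 CPM (269 to 289) in mural wells, 67.2 CPM in endothelial wells and 8.53 CPM in the oligodendrocyte lineage. All 4 endothelial wells at 100 CPM also passed the gate of another lineage, 3 of them that of fibroblasts. In wells that passed a single lineage gate Fbln5 was at 174 CPM in 64 fibroblast wells, 520 CPM in 7 mural wells and 3.84 CPM in 17 endothelial wells. Of these, 17 fibroblast, 3 mural and 0 endothelial wells reached 100 CPM, and the median well was at 0 in each class. Over all wells of the class, the median and highest wells were 0 and 1535 CPM in fibroblasts, and 1.92 and 1798 CPM in mural wells. The fibroblast level hardly varied between the 3 sets (160 to 172 CPM), while the mural level was 453 CPM in 1025s_182s and 106 CPM in 613s, on either side of it. In mural wells Fbln5 went with the smooth muscle markers: 400 CPM in the 20 smooth muscle wells, 9 of which reached 100 CPM, against 59.4 CPM in the other 9 wells, 2 of which did. Without the top well of each these levels were 288 and 30.6 CPM. Fbln2, at chr6:91212455-91272540 on the plus strand, encodes a fibulin of basement membranes and microfibrils. It measured 177 CPM (172 to 181) in fibroblast wells, 203 CPM (194 to 211) in mural wells, 48.8 CPM in endothelial wells and 19.6 CPM in the oligodendrocyte lineage. In wells that passed a single lineage gate Fbln2 was at 123 CPM in 64 fibroblast wells, 405 CPM in 7 mural wells and 55.6 CPM in 17 endothelial wells. The fibroblast level of Fbln2 was the least even of the 10 between sets, at 109 CPM in 1025s_182s, 1078 CPM in 600s_182s and 22.2 CPM in 613s. In 613s fibroblasts lay below endothelial wells, at a log2 ratio of -0.66, against 1.83 over all wells.

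Efemp1 and Efemp2 encode the short fibulins also called fibulin-3 and fibulin-4. Efemp1, at chr11:28853204-28926743 on the plus strand, encodes a fibulin known for binding the protease inhibitor TIMP-3. It was at 945 CPM (934 to 956) in fibroblast wells, 42.0 CPM in mural wells, 92.7 CPM in endothelial wells and 16.8 CPM in the oligodendrocyte lineage. It reached 100 CPM in more fibroblast wells than any of the other 9 genes: the median well had 736 CPM, the highest 5802 CPM, and 75 of 97 wells (77.3%, exact interval 67.7 to 85.2%) reached 100 CPM. In each of the 3 sets the fibroblast level was between 907 and 1252 CPM. The 8 endothelial wells at 100 CPM all passed the fibroblast gate too, and among wells that passed a single lineage gate Efemp1 was at 982 CPM in fibroblast wells, against 7.23 CPM in endothelial wells. Thinned to 50000 reads per well, 88.7% of fibroblast wells had an Efemp1 read, against 51.7% of mural wells, 42.9% of endothelial wells and 25.6% of oligodendrocyte lineage wells. Efemp2, at chr19:5473954-5482517 on the plus strand, encodes a fibulin that binds lysyl oxidase and without which elastic fibres do not form in mice. It was at 446 CPM (439 to 454) in fibroblast wells, 132 CPM (125 to 139) in mural wells, 120 CPM (115 to 126) in endothelial wells and 27.2 CPM in the oligodendrocyte lineage. It reached 100 CPM in 65 of 97 fibroblast wells (67.0%), 13 of 29 mural wells and 14 of 42 endothelial wells. In wells that passed a single lineage gate the levels were 441 CPM in 64 fibroblast wells, 119 CPM in 7 mural wells and 108 CPM in 17 endothelial wells, so Efemp2 was also measured in vascular wells that did not pass the fibroblast gate.

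**Figure D2:**
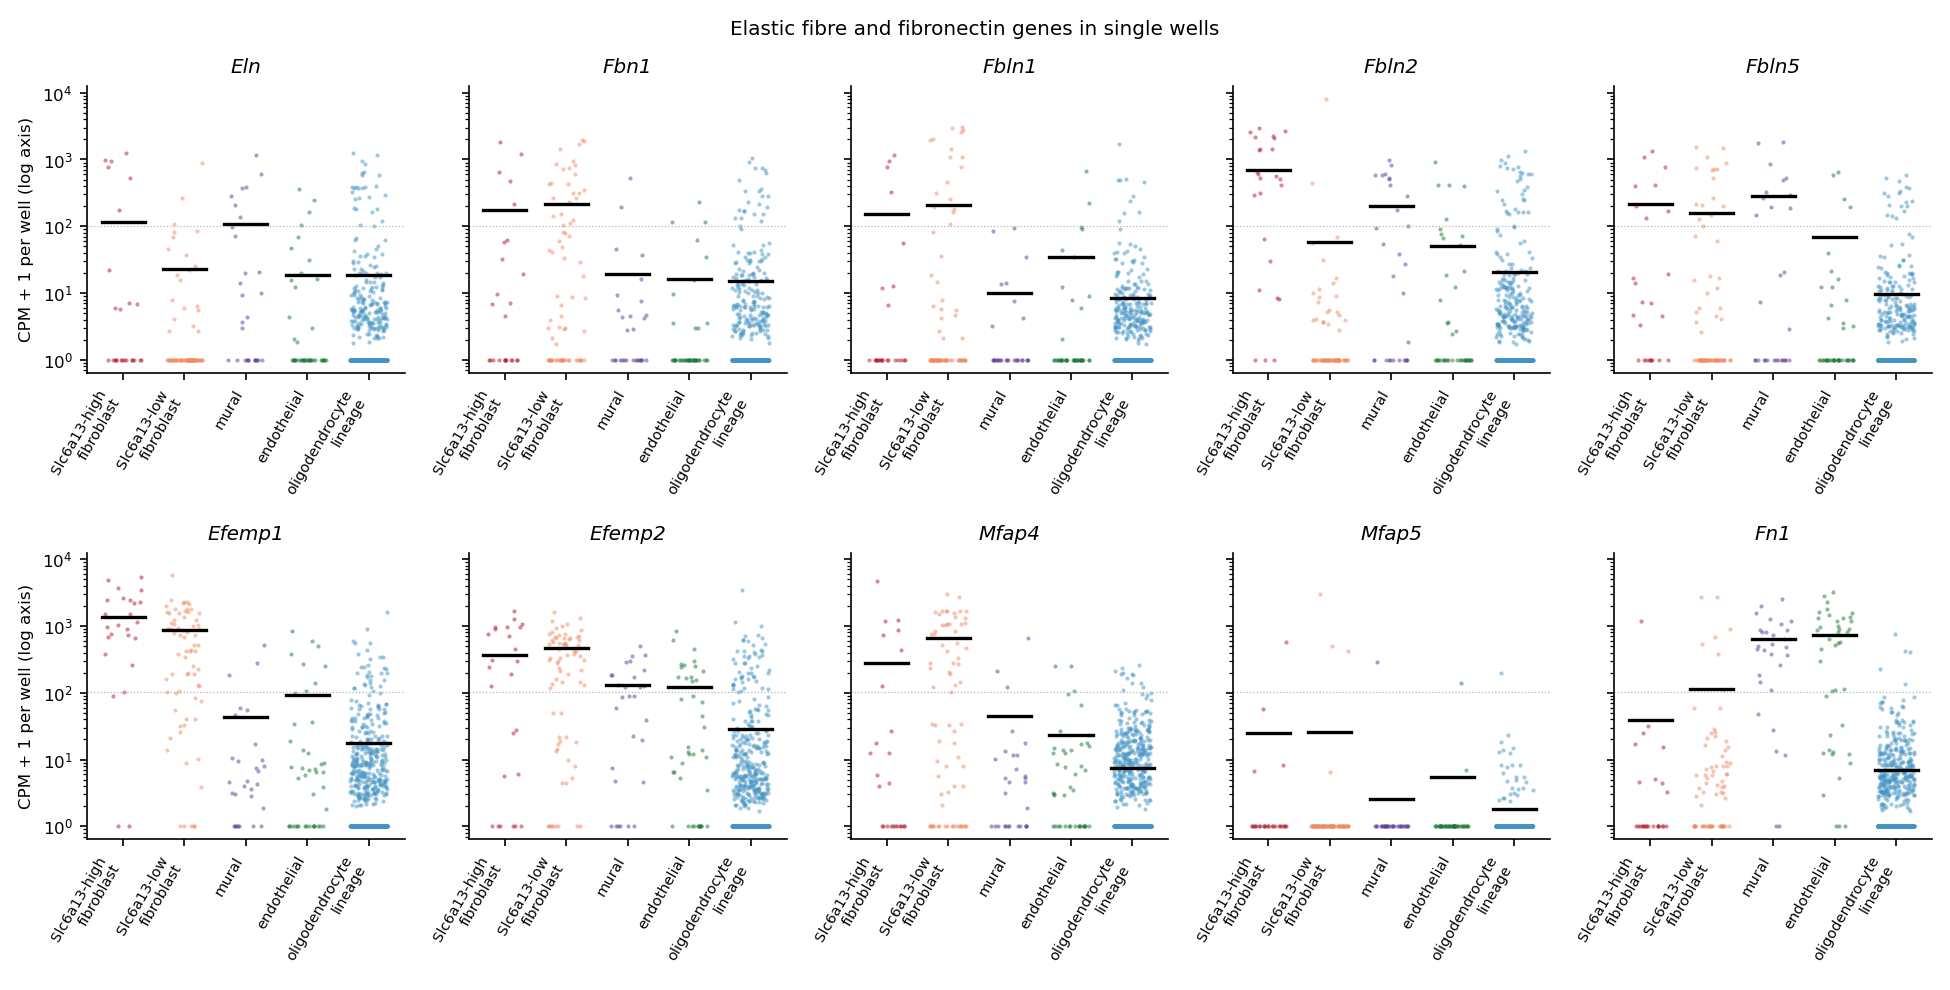
CPM + 1 of each gene (log axis) in every kept well of 5 classes, 1 dot a well with sideways scatter, black bars at CPM + 1 of the summed reads and the dotted line near 100 CPM. Efemp1 lifts most fibroblast wells above the line, while Fbln1 lies at 0 in most wells of every class and high in a few.

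Fn1, at chr1:71585520-71653200 on the minus strand, encodes fibronectin and ran the other way. It measured 99.3 CPM (95.7 to 103) in fibroblast wells, 637 CPM (622 to 652) in mural wells, 742 CPM (728 to 756) in endothelial wells and 6.02 CPM (5.70 to 6.35) in the oligodendrocyte lineage. The median and highest wells were 2.27 and 2739 CPM in fibroblasts, 490 and 2568 CPM in mural wells, 563 and 3261 CPM in endothelial wells, and 1.10 and 759 CPM in the oligodendrocyte lineage. The typical fibroblast well was thus close to the oligodendrocyte lineage and far from the vascular wells, and the fibroblast level came from few wells, 3 of which held 71.8% of the reads. At 100 CPM the counts were 8 of 97 fibroblast wells (8.25%), 23 of 29 mural wells (79.3%), 28 of 42 endothelial wells (66.7%) and 5 of 628 oligodendrocyte lineage wells. Fibroblasts were lower than endothelial wells by a log2 ratio of -2.89 (-2.15 and -4.28 within 1025s_182s and 613s) and lower than mural wells by -2.67 (-1.86 and -3.86). The mural value was measured mostly in wells with endothelial markers. In the 2 mural wells that did not pass the endothelial gate, Fn1 was at 10.9 and 12.5 CPM. Endothelial wells were high both with arterial markers (827 CPM, 18 of 23 wells at 100 CPM) and without them (615 CPM, 10 of 19 wells).

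**Figure D3:**
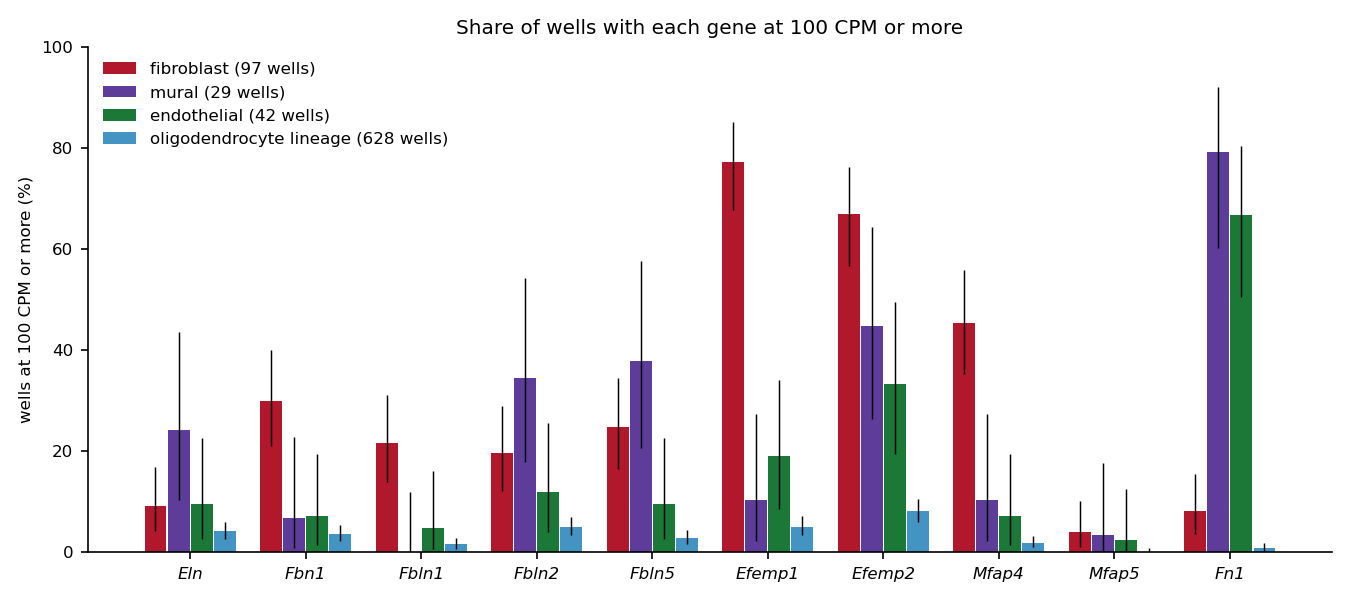
Share of wells (%) of each class with a gene at 100 CPM or more, with exact Clopper-Pearson 95% intervals that treat wells as independent draws and cover no spread between animals. For Fn1 the fibroblast bar (8.25%) is far below those of mural (79.3%) and endothelial wells (66.7%), and for Efemp1 the fibroblast bar stands at 77.3%.

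Counted together, the 10 genes were carried in small and varied combinations. The median fibroblast well had 3 of them at 100 CPM or more and the highest had 7. The median was 2 in mural wells, 2 in endothelial wells and 0 in the oligodendrocyte lineage. At least 4 genes were carried by 40 of 97 fibroblast wells, 7 of 29 mural wells, 4 of 42 endothelial wells and 1 of 628 oligodendrocyte lineage wells. Over the 97 fibroblast wells, pairs of the 10 had Pearson r between -0.25 and 0.39 on the log2(CPM + 1) scale. The highest was for Eln and Fbln2, at 0.39 over all wells and 0.19, 0.29 and 0.22 within 1025s_182s, 600s_182s and 613s, with 6 wells at 100 CPM for both among 9 for Eln and 19 for Fbln2. The lowest was for Fbln1 and Efemp1, at -0.25 over all wells and 0.06, -0.75 and -0.33 within the same sets, of which 600s_182s had 21 fibroblast wells. These wells share library chemistry and depth range, and the coefficients are descriptions.

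**Figure D4:**
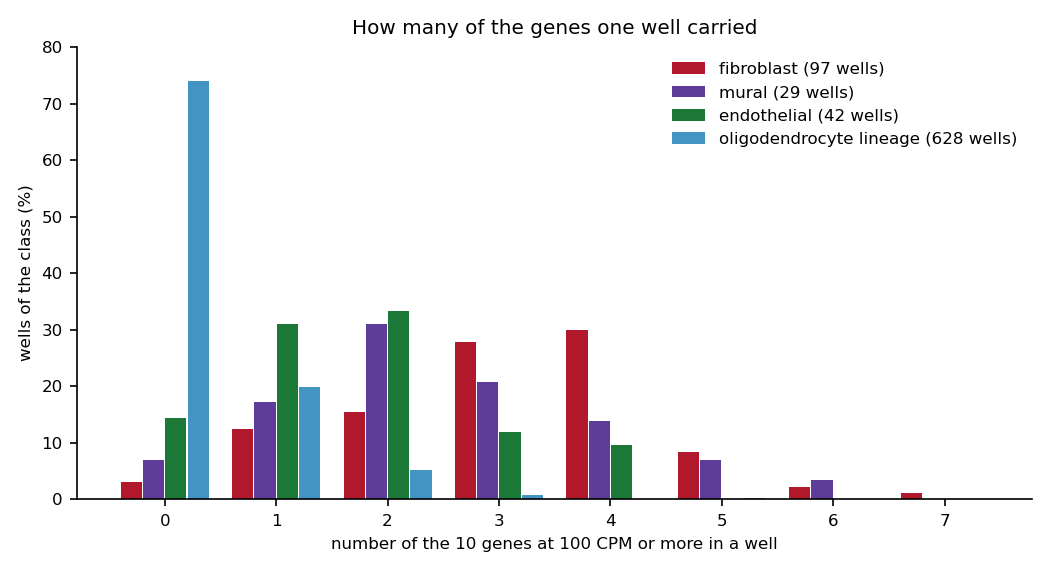
Share of the wells of each class (%) by the number of the 10 genes at 100 CPM or more in a well. Fibroblast wells peak at 3 and 4 genes, mural and endothelial wells at 2, and oligodendrocyte lineage wells at 0.

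Fibroblast wells were split at 100 CPM of Slc6a13, which encodes a plasma membrane transporter of GABA and taurine and is used in brain by fibroblasts of the leptomeninges. This gave 25 Slc6a13-high and 72 Slc6a13-low wells. The nearest wells lay close on either side of the split, at 118 and 95.9 CPM, so their assignment depended on the exact limit. The next wells were at 651 CPM above and 23.7 CPM below, and 54 of the 97 wells had no Slc6a13 read. A list of 6 other leptomeningeal genes summed to 3405 CPM in Slc6a13-high wells and 177 CPM in Slc6a13-low wells, with 4 of the 6 higher in Slc6a13-high wells, Slc47a1 at 0 and 15.6 CPM, and Slc22a2 at 0 in both. The 6 non-matrix fibroblast markers summed to 2671 CPM in Slc6a13-high wells and 4485 CPM in Slc6a13-low wells. Of these, Dpep1 (2.33 and 1293 CPM), Tcf21, Inmt and Cped1 were lower in Slc6a13-high wells, and Colec12 (1492 and 840 CPM) and Foxc1 were higher. Markers of the choroid plexus epithelium summed to 247 CPM in Slc6a13-high wells, where 3 of 5 markers reached 10 CPM, and 1351 CPM in Slc6a13-low wells, where 5 of 5 did. Oligodendrocyte lineage markers summed to 726 CPM in Slc6a13-high wells and 282 CPM in Slc6a13-low wells, and astrocyte markers to 698 and 117 CPM. Most of the astrocyte sums came from 1 marker, Gja1, at 569 and 65.6 CPM. The part of RNA of these other cell types in the results below was not tested. The groups were also spread unevenly over the sets, with 7, 16 and 2 Slc6a13-high wells and 40, 5 and 27 Slc6a13-low wells in 1025s_182s, 600s_182s and 613s.

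Of the 10 genes, 2 were called higher in Slc6a13-high wells, Fbln2 and Eln, against 19.1% of 11371 genes compared, and 2 were called lower, Mfap4 and Fn1, against 38.3% of genes. The median log2 ratio was -0.17 over the 10 and -0.40 over all genes compared. The set as a whole was thus not on one side of the split, and 6 genes received no call. Within sets the median over all genes was itself shifted, to -2.28 in 1025s_182s and 0.97 in 600s_182s, and the ratios within a set given below stand against those values. Fbln2 stood at 706 CPM (684 to 728) in Slc6a13-high wells and 56.4 CPM (53.4 to 59.4) in Slc6a13-low wells. The median and highest wells were 533 and 2983 CPM in Slc6a13-high wells, against 0 and 8021 CPM in Slc6a13-low wells. Fbln2 reached 100 CPM in 17 of 25 Slc6a13-high wells (68.0%, exact interval 46.5 to 85.1%) and in 2 of 72 Slc6a13-low wells (2.78%, 0.338 to 9.68%). Thinned to 50000 reads, 72.0% of Slc6a13-high wells and 11.1% of Slc6a13-low wells had a Fbln2 read, at median depths before thinning of 173648 and 314696 reads.

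A single well decided the size of the Fbln2 difference. The Slc6a13-low well with the most Fbln2, at 8021 CPM, belonged to 600s_182s, had 20.7 CPM of Slc6a13 and passed 2 lineage gates. With it the log2 ratio was 3.62. Without it the Slc6a13-low level was 9.14 CPM and the log2 ratio 6.12. Within 1025s_182s the ratio was 7.97, from 995 CPM in 7 Slc6a13-high wells and 2.97 CPM in 40 Slc6a13-low wells. Within 600s_182s it was -0.93 with that well and 7.08 without it, where the Slc6a13-high wells had 906 CPM and the 4 remaining Slc6a13-low wells 5.69 CPM. The group ranges thus overlapped, while all but 2 of the Slc6a13-low wells lay below 100 CPM.

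**Figure D5:**
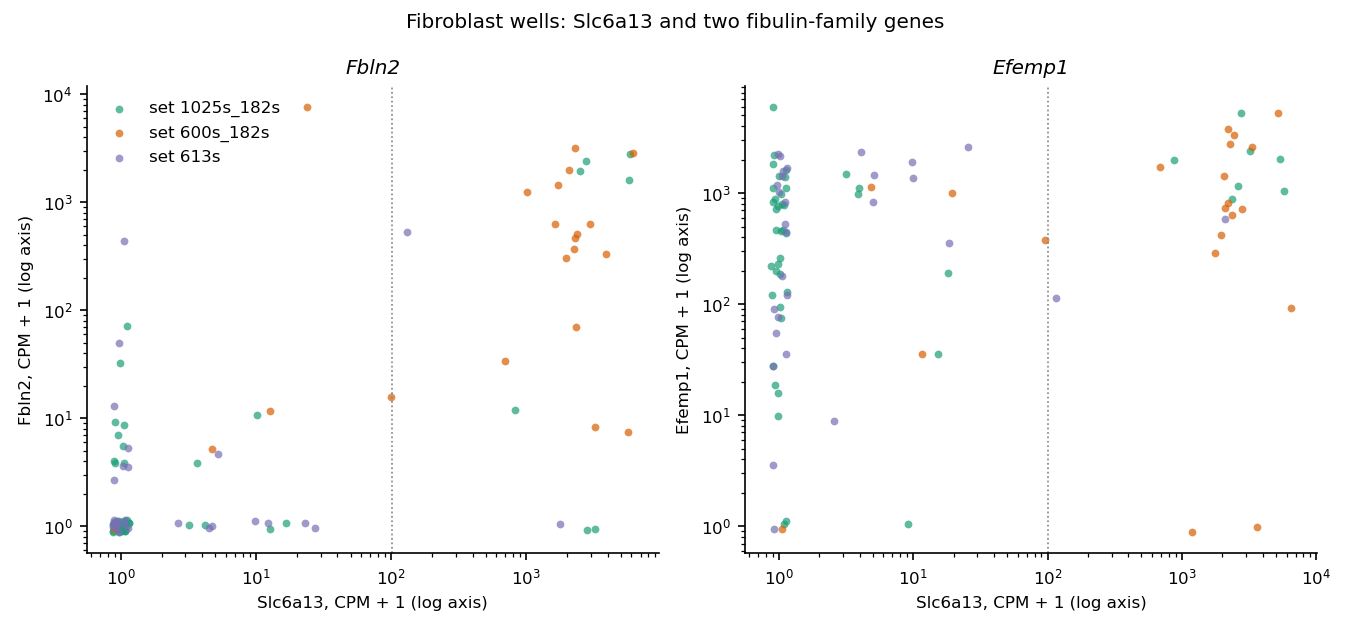
Fbln2 (left) and Efemp1 (right) against Slc6a13, all as CPM + 1 on log axes, in the 97 fibroblast wells, coloured by set, with slight random scatter and the dotted line at the split. Fbln2 is high mainly right of the line, apart from the well of 8021 CPM at upper left, while Efemp1 is high on both sides.

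Eln was at 115 CPM (106 to 124) in Slc6a13-high wells and 21.9 CPM (20.1 to 23.9) in Slc6a13-low wells, a log2 ratio of 2.34, with 3.19 within 1025s_182s and 2.22 within 600s_182s. The median was 0 in both groups, and the highest wells had 1247 CPM and 873 CPM in that order. Only 6 of 25 Slc6a13-high wells and 3 of 72 Slc6a13-low wells reached 100 CPM, so the difference rests on 9 wells. Mfap4 was at 280 CPM in Slc6a13-high wells and 659 CPM in Slc6a13-low wells (log2 ratio -1.23), with medians of 3.53 and 111 CPM and 7 of 25 against 37 of 72 wells at 100 CPM. Its ratio was -1.84 within 1025s_182s but 5.06 within 600s_182s, where the 16 Slc6a13-high wells had 480 CPM and the 5 Slc6a13-low wells 13.4 CPM, so that in both sets it lay above the median of all genes. Fn1 was at 38.4 CPM in Slc6a13-high wells and 113 CPM in Slc6a13-low wells, a log2 ratio of -1.54. Of the 214 Fn1 reads in Slc6a13-high wells, 201 came from 1 well of 613s with 1190 CPM, which lay just above the split at 118 CPM of Slc6a13, and without it the level was 2.40 CPM. In Slc6a13-low wells 7 of 72 wells reached 100 CPM. The Fn1 ratio was -7.57 within 1025s_182s and -4.46 within 600s_182s. With 1025s_182s left out it was 0.76, and with that single well left out as well it was -2.87.

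The other 6 genes received no call over all wells, and most of them differed between sets. Efemp1 was at 1339 CPM (1309 to 1370) in Slc6a13-high wells and 855 CPM (844 to 867) in Slc6a13-low wells, with medians of 1024 and 472 CPM. It reached 100 CPM in 22 of 25 and 53 of 72 wells, and its log2 ratio of 0.65 was 1.30 within 1025s_182s and 1.20 within 600s_182s. Efemp2 was at 369 and 464 CPM, Fbn1 at 173 and 213 CPM, Fbln1 at 152 and 208 CPM, Fbln5 at 216 and 157 CPM and Mfap5 at 23.7 and 24.6 CPM, Slc6a13-high wells given before Slc6a13-low wells. Within 600s_182s, with 5 Slc6a13-low wells, the log2 ratio was 5.10 for Efemp2, 5.67 for Fbln5 and -3.85 for Fbln1, against -0.03, 1.01 and 0.96 within 1025s_182s. Fbn1 had 1.00 within 1025s_182s and -1.52 within 600s_182s, and Mfap5 -4.99 and -1.04. The pooled values therefore do not show that these genes were at equal levels. Among 6805 genes used by at least 20% of fibroblast wells at 10 CPM, those most like Fbln2 over the 97 wells were Slc6a13 (Pearson r of log2(CPM + 1) 0.71), Bmp7 (0.67) and Aldh1a1 (0.67). For Slc6a13 the r was 0.66 within 1025s_182s, 0.50 within 600s_182s and 0.08 within 613s, which had 2 Slc6a13-high wells. For Efemp1 the most alike were Plat (0.50), Ctsl (0.41) and Cnn3 (0.40). For Mfap4 they were Ptges (0.44), Hpgd (0.42) and Thbs1 (0.41), and for Efemp2 the first was Mbtps1 (0.45). The first genes for Fbln1 (Gnai1, 0.45), Fn1 (Clk3, 0.42), Fbln5 (Immp1l, 0.41) and Fbn1 (Trpv2, 0.39) were no closer, and Eln and Mfap5 were used by too few wells to be ranked.

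Outside the fibroblast and vascular classes, some oligodendrocyte precursors carried these genes. The lineage was divided by stage markers into 231 precursor, 65 committed precursor and 332 mature wells. Eln was at 50.4 CPM (48.8 to 52.0) in precursors, 1.48 CPM in committed precursors and 1.18 CPM in mature wells. It reached 100 CPM in 24 of 231 precursor wells (10.4%, exact interval 6.77 to 15.1%), with a median of 0 and a maximum of 1261 CPM. Of these 24, 11 had another of the 10 genes at 100 CPM, as did 70 of the 207 precursor wells without Eln at that level. Of the 24 wells, 21 came from 600s_182s, which held 179 of the precursor wells, 2 from 1025s_182s (19 wells) and 1 from 613s (33 wells). Efemp2 was at 58.2 CPM in precursors, 15.1 CPM in committed precursors and 11.1 CPM in mature wells, with 35 precursor wells at 100 CPM, 33 of them of 600s_182s. Within 600s_182s the stages had 69.2, 17.1 and 8.30 CPM, but within 1025s_182s precursors had 1.26 CPM and mature wells 2.57 CPM, and within 613s the stages had 42.6, 2.55 and 19.0 CPM. Fbn1 was at 35.8, 10.4 and 1.93 CPM and Fbln2 at 34.6, 24.0 and 8.98 CPM in the same order of stages. Fbln5 was highest in committed precursors, at 9.49, 30.0 and 1.94 CPM, and the 10 committed precursor wells at 100 CPM were all of 600s_182s, which held 58 of the 65 wells of that stage. Efemp1 was at 7.64, 4.56 and 26.0 CPM over all sets, but at 5.11, 5.05 and 5.35 CPM within 600s_182s. Within 1025s_182s precursors had 1.74 CPM and mature wells 33.0 CPM, and within 613s the stages had 19.7, 1.39 and 36.3 CPM. Mature wells were mostly of these other sets (91 and 160 of 332). Of the 29 mature wells with Efemp1 at 100 CPM, 8 passed the fibroblast gate too. Mfap4 and Mfap5 reached 100 CPM in no precursor or committed precursor well.

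Related genes were counted as whole lists, each named by its main theme. Not every listed gene works on these fibres: Pcolce, in the list of elastin cross-linking and assembly, acts on procollagen. The share of all genes called is given above for each comparison and stands as the background of these counts, which are over the genes at 10 CPM in either class. Of the genes for elastin cross-linking and assembly, fibroblasts had 12 of 16 called higher and 2 lower against the oligodendrocyte lineage (22.7% and 24.3% of all genes), 13 of 14 higher and 0 lower against endothelial wells (23.0% and 20.5%), and 12 of 15 higher and 1 lower against mural wells (24.1% and 20.1%). The median log2 ratios were 4.46, 2.47 and 2.73 in that order, beside medians near 0 for all genes. Pcolce, an enhancer of procollagen processing, was at 1315 CPM in fibroblasts and 7.88 CPM in the oligodendrocyte lineage, and Adamtsl4, a fibrillin-binding protein, was at 4.85 CPM and 108 CPM. Loxl1, an elastin cross-linker, was at 399 CPM in fibroblasts, 37.4 CPM in mural wells and 83.0 CPM in endothelial wells. Across the Slc6a13 split this list had 2 of 14 called higher and 5 lower, shares near those of all genes (19.1% and 38.3%). The extremes were Loxl4, a lysyl oxidase-like enzyme, at 250 CPM in Slc6a13-high and 3.42 CPM in Slc6a13-low wells, and Adamtsl2, which binds fibrillin, at 0.179 and 274 CPM.

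Of the fibronectin receptors and partners, fibroblasts had 7 of 11 called higher and 2 lower against the oligodendrocyte lineage (22.7% and 24.3% of all genes), and 7 of 12 higher and 2 lower against endothelial wells (23.0% and 20.5%). Against mural wells 3 of 12 were higher and 4 lower, near the shares of all genes (24.1% and 20.1%). Itga8, an integrin subunit that binds fibronectin, was the highest ratio against mural wells, at 505 CPM in fibroblasts and 35.1 CPM in mural wells. Across the Slc6a13 split 2 of 11 were called higher and 5 lower (19.1% and 38.3% of all genes). Tgm2, a transglutaminase that binds fibronectin, was at 704 CPM in Slc6a13-high and 131 CPM in Slc6a13-low wells, and Itgb3 was at 1.79 and 52.4 CPM. Of the 6 genes of latent TGF-beta binding at 10 CPM, in which the LTBP proteins tether the growth factor to microfibrils, 5 were called lower and none higher in Slc6a13-high wells, against 38.3% and 19.1% of all genes. Their median log2 ratio was -2.62, beside -0.40 for all genes. In fibroblasts as a whole 5 of 6 were called higher and 0 lower against the oligodendrocyte lineage (22.7% and 24.3% of all genes), 4 and 1 of 6 against endothelial wells (23.0% and 20.5%), and 1 and 2 of 6 against mural wells (24.1% and 20.1%). Tgfb2 was the lowest against endothelial wells, at 34.8 CPM in fibroblasts and 205 CPM in endothelial wells. Of the 7 proteases at 10 CPM, 4 were called higher in fibroblasts in each of the 3 comparisons (22.7 to 24.1% of all genes), with 0 lower against the oligodendrocyte lineage and 2 lower against both endothelial and mural wells. Mmp2, a gelatinase, was at 509 CPM in fibroblasts, 9.25 CPM in mural wells and 27.2 CPM in endothelial wells. Ctss, a lysosomal protease of microglia and macrophages, was the lowest against both, at 30.7 CPM in fibroblasts, 569 CPM in mural wells and 483 CPM in endothelial wells. Microglial markers summed to 479, 1898 and 2034 CPM in the same classes, and their part in the Ctss values was not tested. Of these sums Tmem119 alone gave 326, 162 and 146 CPM, while each of the other markers was lower in fibroblasts than in both vascular classes. Across the Slc6a13 split no protease was called higher and 1, Ctss, was called lower, at 3.94 CPM in Slc6a13-high and 36.8 CPM in Slc6a13-low wells. Of the 6 genes at 10 CPM of the wider fibulin family and its neighbours, 5 were called higher in fibroblasts against the oligodendrocyte lineage, 5 against endothelial wells and 4 against mural wells, with 1 lower in each. These shares stand beside 22.7%, 23.0% and 24.1% of all genes higher. Across the split 3 of 6 were called higher and 2 lower (19.1% and 38.3% of all genes). Vtn, which encodes vitronectin, an adhesive glycoprotein, had the largest ratio of that list across the split, at 2897 CPM in Slc6a13-high wells and 53.2 CPM in Slc6a13-low wells. Beside it Thbs1, which encodes thrombospondin-1, was the lowest, at 47.1 CPM and 388 CPM.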

How the data were processed

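RNA was read in single sorted brain cells, and the deposited values are whole-number read counts per gene, not normalized, with 1 column per well. GRCm38, mm10, featureCounts of Subread 1.4.6-p5, TopHat2 2.1.1 and SAMtools 0.1.18 appear in the submitters' processing notes. How strand and reads shared by several genes were handled is not given in the sources used here. The 10 genes, the lists and the marker genes were chosen with earlier results of these data known. Counts were scaled here to CPM by the well's total. Of 1152 wells, 295 with under 50000 reads were removed; no doublet caller was run on sorted wells. A well passing several lineage gates went to the lineage with the highest mean log2(CPM + 1) of its 3 highest markers, and a vascular well passing the mural gate was called mural. Smooth muscle wells had at least 2 of 4 markers at 100 CPM and arterial wells at least 2 of 6 at 20 CPM. Named genes were the 10, the 3 genes most like each over fibroblast wells, and the highest or lowest of a list; Loxl1 was chosen after its values were seen. Wells were thinned with seed 1. Exon lengths and positions come from GENCODE vM21, antisense overlaps included, and promoters from RefSeq. The calling step was tested on simulated counts. Alternatives changed the depth minimum, gates, scaling, split, minimum level and sets. Python 3.11.15, numpy 2.4.6, pandas 2.3.3, scipy 1.17.1 and matplotlib 3.10.9 were used.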

Additional observations from a re-analysis of the deposited data

How the results depend on the processing

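No paired analysis was possible because the wells form 1 sample and share no replicate numbers, and no replicate could be left out. The counts of called genes against the oligodendrocyte lineage and endothelial wells stayed within 1.5 times their values under every alternative run: 9 to 10 higher and 0 lower against the oligodendrocyte lineage, 6 to 9 higher and 1 lower against endothelial wells. Against mural wells 6 were higher throughout, and the number lower, 2 in all wells, was 4 with wells of several lineage gates left out, 1 for the mean of the wells' own CPM, 1 with set 1025s_182s left out and 4 within that set. With wells of several lineage gates left out, which left 7 mural wells, Fbln2 and Fbln5 were lower as well as Eln and Fn1. Across the Slc6a13 split the number higher, 2 in all wells, was 4 within 1025s_182s and 5 within 600s_182s. The number lower, also 2, was 1 with 613s left out, 4 within 600s_182s and 1 with the split at 20 CPM. The share of all genes called is given here for all wells only. Across the split the median log2 ratio of all genes was itself -2.28 within 1025s_182s and 0.97 within 600s_182s. Counts under the alternatives, those against mural wells included, therefore show how calls moved and are not a result about the 10 genes. The 4 log2 ratios of called genes that changed sign were Fbln2 over endothelial wells within 613s (-0.66), Fbln2 (-0.93) and Mfap4 (5.06) across the split within 600s_182s, and Fn1 across the split with 1025s_182s left out (0.76). For Fbln2 across the split, leaving out 1 well of that set gave 7.08; for Fn1, leaving out 1 well of 613s as well gave -2.87. For the other 2 the cause was not tested. Over the alternatives, 287 ratios of single genes moved by less than counting error, 381 by more, uncalled genes that changed sign included, and the 4 above changed sign with a call.

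The alternatives that left out fibroblast wells with choroid plexus markers, the top well of each gene, or a single well within or beside a set, were chosen after seeing the data. With the top wells left out Eln lost its call against the oligodendrocyte lineage, leaving 9 higher. With a fibroblast gate on non-matrix genes the Fn1 ratios over endothelial and mural wells were -4.36 and -4.31. The absence of replicates limits every value here, and depth limits genes with few reads, such as Mfap5, whose mural level rests on 17 reads.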
